A study of Ovis aries with 36 samples.

Results

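Lipid droplet proteins and lipases were followed in fetal sheep as 9 genes: PLIN1, PLIN2, CIDEC, PNPLA2, HSL (the name these data give to LIPE), MGLL, PNPLA3, G0S2 and DGAT2. They were picked by name, and earlier results of these data were known when they were picked. A locus belonged to the set when its name, split at commas, was one of these, and loci of the same name were summed. Of the 9 genes, 8 were found, the same 8 in each tissue, among 21607 gene names that occurred in the counts of all 3 tissues. No locus carried the name PLIN2. ADFP, which the RefSeq gene table of another sheep assembly (ARS-UI_Ramb_v3.0) lists as a synonym of PLIN2, was present and is shown beside the 8 members without being counted among them.

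The lipid droplet is the organelle in which a cell stores triglyceride, and white and brown adipocytes are the cells best known for it. Proteins on its surface decide how large the droplet grows and how far lipases reach the lipid inside. During lipolysis, PNPLA2, HSL and MGLL act in that order on triglyceride, diglyceride and monoglyceride, releasing fatty acids and glycerol, and hormones that raise cyclic AMP switch the process on through phosphorylation of the coat protein PLIN1 and of HSL.

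The study compared 3 maternal diets in pregnant ewes: corn (CN), dried corn distillers grains (DG) and alfalfa haylage (HY, which the sample labels call hay). The ewes were Polypay, bred to a single sire, and ate their diet from mid to late gestation, after which RNA was taken from the fetuses' longissimus dorsi muscle (muscle), the fat beneath the skin near the shoulder blade (subcutaneous) and the fat around the kidney (perirenal). Each of the 9 combinations of tissue and diet held 4 sequenced libraries, called pools here, of which 2 held RNA of female fetuses (F1, F2) and 2 of male fetuses (M1, M2). Per the study's pool list, each pool mixed RNA of several fetuses except CN F2, which came from a single fetus, and some pools of a diet shared dams. There was no group on a reference ration. Thus a p-value here measured the spread between pools and not between dams.

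The 36 libraries held between 6705766 and 29625146 counts, with a median of 14406914. The labelled tissues were checked against marker genes. The summed level of the 18 skeletal muscle markers that the files name, of 20 listed (MYH2 and MYH7 were not named), was 143037 to 179082 counts per 1000000 counts of a library (CPM) in muscle and 35.8 to 857 CPM in perirenal fat. In the subcutaneous pools it ran from 1105.84 to 127539 CPM, so that some pools of this depot carried nearly as much muscle RNA as muscle itself. The 8 adipocyte markers named, of 12 listed (PPARG, CD36, ADIG and PCK1 were not named), summed to 79.3 to 182 CPM in muscle, where LEP had no counts, to 1650 to 12065 CPM in subcutaneous fat and to 6550 to 16535 CPM in perirenal fat. The brown adipocyte gene UCP1 reached at most 0.203 CPM in muscle, 8.14 to 138 CPM in subcutaneous fat and 412 to 1176 CPM in perirenal fat. In such bulk tissue, fewer cells of a type and less RNA per cell cannot be told apart.

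All positions below are those of the sheep assembly Oar_v3.1. HSL lay at chr14:49930220-49949431 in muscle, PNPLA2 at chr21:49317673-49320516, MGLL at chr19:59533820-59622087 and CIDEC at chr19:16766561-16775498, and the other tissues placed these 4 genes at nearly the same bases. Loci had been assembled separately in each tissue, and for the other members the definition differed. PLIN1 spanned chr18:20189878-20205669 in perirenal fat but began 2958 bases later in subcutaneous fat and 1321 bases later in muscle. DGAT2 spanned chr15:53324401-53362860 in perirenal fat and ended at 53358737 in subcutaneous fat, where a separate unnamed locus with 1498 counts covered 53358845 to 53362748. PNPLA3 was listed at chr3:218295079-218672240 in muscle, an interval that 6 loci shared. G0S2 was a locus of 262 bases, chr12:71772866-71773127, in muscle and subcutaneous fat, whereas in perirenal fat it was merged with its neighbour HSD11B1 into 69589 bases, chr12:71703539-71773127. The part that these definitions play in differences between tissues was not tested. For G0S2, the whole G0S2 and HSD11B1 region was also summed in every tissue, which compares the same stretch but not G0S2 alone. Levels are CPM scaled by edgeR's trimmed mean of M values, without correction for gene length, and were therefore compared between samples of a gene and never between genes.

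Most members were higher in the fat depots than in muscle. DGAT2, PNPLA3 and CIDEC were low or at 0 in muscle and abundant in both fat depots, PLIN1 was by far highest in perirenal fat, and PNPLA2 and MGLL, the first and last lipases of the series, differed less from muscle in either fat depot than the other members. Differences between tissues were tested in 1 edgeR quasi-likelihood fit over the 36 libraries and 13284 genes, as contrasts of the means over the 3 diets, and a member was called at a Benjamini-Hochberg adjusted p (FDR) of at most 0.05. Of the 8 members, 7 were called between subcutaneous fat and muscle (6 higher in fat, 1 lower), where 72.2% of all genes were called (35.7% higher and 36.5% lower). Between perirenal fat and muscle 7 were called, all higher in fat, against 79.7% of all genes (38.6% higher), and between perirenal and subcutaneous fat all 8 were called, all higher in perirenal fat, against 66.8% of all genes (31.8% higher). Most genes thus differed between tissues. The fit did not keep the pool as a block, although the same fetuses gave all 3 tissues of a pool. With that block the CIDEC call between the fat depots was lost, and MGLL was called lower in subcutaneous fat than in muscle, as given below. The median log2 difference of the members was 2.20, 7.43 and 1.499 in these 3 contrasts, beside -0.01, -0.03 and -0.02 over all genes tested. With G0S2 replaced by the sum of the G0S2 and HSD11B1 region in every tissue, described with G0S2 below, the members' medians were 2.66, 5.04 and 1.02.

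**Figure D1:**
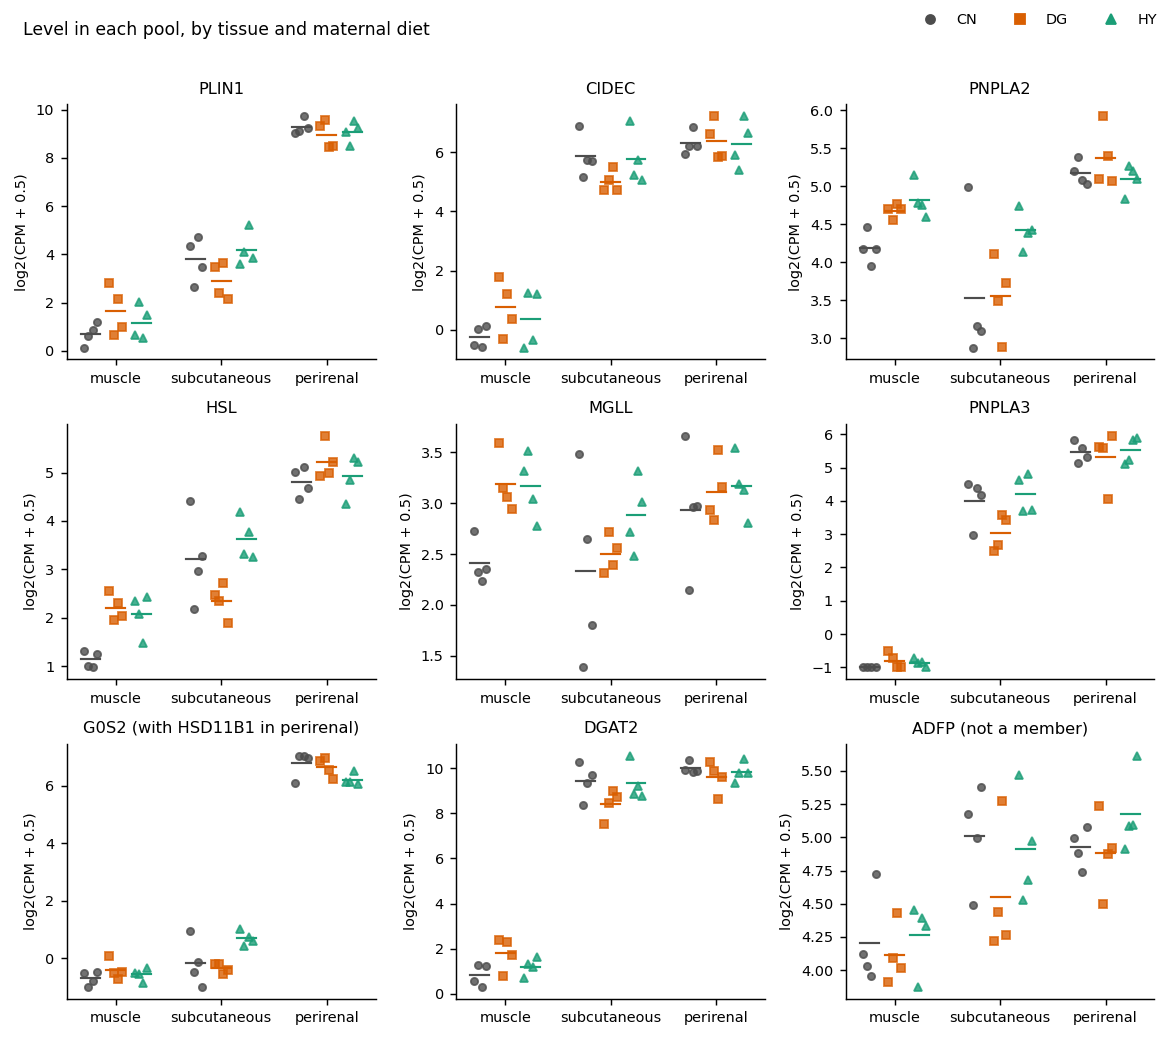
Level of the 8 members and of ADFP in each of the 36 pools, as log2(CPM + 0.5), by tissue, with points for pools and a line at the group mean of these log2 values. DGAT2, CIDEC and PNPLA3 are lower in all 12 muscle pools than in any fat pool, with PNPLA3 near the floor in muscle. PLIN1 is high in the perirenal pools alone. PLIN1, HSL, G0S2, PNPLA2, MGLL and ADFP overlap between muscle and at least 1 fat depot.

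PLIN1 is the coat protein of adipocyte droplets that holds lipases back until it is phosphorylated. With G0S2 and its unlike loci set aside, PLIN1 showed the widest gap between the fat depots. Its lowest, median and highest level over the 12 pools was 0.598, 1.39 and 6.59 CPM in muscle, 3.93, 11.8 and 36.9 CPM in subcutaneous fat, and 349, 577 and 855 CPM in perirenal fat. No perirenal pool came near the subcutaneous range, while subcutaneous and muscle pools overlapped. The mean was 39.9 times as high in perirenal as in subcutaneous fat, a log2 difference of 5.42 (SE 0.336, FDR 6.25e-15), and 6.70 times as high in subcutaneous fat as in muscle, a log2 difference of 2.76 (SE 0.321, FDR 7.79e-09). The locus covered a longer stretch in perirenal fat, as given above.

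CIDEC, which fuses small droplets into large ones, was instead abundant in both fat depots. It reached 0.159, 0.562 and 2.97 CPM (lowest, median, highest) in muscle, 25.8, 40.6 and 133 CPM in subcutaneous fat and 41.6, 73.7 and 149 CPM in perirenal fat. Muscle lay apart from both fat depots, which overlapped over most of their range. The log2 difference was 5.92 (SE 0.401, FDR 6.40e-14) for subcutaneous fat over muscle and 0.75 (SE 0.300, FDR 0.0283) for perirenal over subcutaneous fat. The latter call was not firm. With the pool kept as a block, since the same fetuses gave all 3 tissues of a pool, its FDR was 0.0588, and it was lost without subcutaneous HY M2 (0.0517), perirenal CN M1 (0.0541), perirenal DG F2 (0.0661) or perirenal HY M1 (0.0691).

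ADFP, the synonym of the missing PLIN2 and the coat protein that most cell types use, was far more even. Its lowest, median and highest level was 14.1, 16.7 and 25.9 CPM in muscle, 18.1, 28.0 and 43.7 CPM in subcutaneous fat and 22.1, 30.6 and 48.5 CPM in perirenal fat. The means of the fat depots were 1.60 and 1.76 times that of muscle (FDR 7.25e-05 and 2.92e-06), and the fat depots did not differ from each other at the threshold, with a log2 difference of 0.15 (SE 0.137, FDR 0.351).

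Among the lipases, PNPLA2, also known as adipose triglyceride lipase, takes the first fatty acid from triglyceride. It was lowest in subcutaneous fat, at 6.86, 14.7 and 31.3 CPM (lowest, median, highest), intermediate in muscle, at 15.0, 24.6 and 34.9 CPM, and highest in perirenal fat, at 27.9, 35.2 and 60.3 CPM. Neighbouring tissues in this order overlapped. PNPLA2 was the only member lower in subcutaneous fat than in muscle at the threshold, with a log2 difference of -0.62 (SE 0.176, FDR 0.00228), and was higher in perirenal fat than in muscle by 0.67 (SE 0.174, FDR 0.000796) and than in subcutaneous fat by 1.30 (SE 0.178, FDR 1.55e-07).

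HSL, the hormone-sensitive lipase of the second step, increased from muscle to subcutaneous to perirenal fat. Its lowest, median and highest level was 1.46, 3.49 and 5.33 CPM in muscle, 3.22, 8.18 and 20.9 CPM in subcutaneous fat, and 19.9, 31.5 and 53.7 CPM in perirenal fat. Only the highest subcutaneous pool reached into the perirenal range. The mean level in perirenal fat was 9.95 times that in muscle and 3.55 times that in subcutaneous fat, with log2 differences of 3.40 (SE 0.207, FDR 7.44e-16) and 1.93 (SE 0.193, FDR 2.77e-10), and subcutaneous fat exceeded muscle by 1.48 (SE 0.201, FDR 1.14e-07). All HSL levels leave out an unnamed locus past HSL, with 1730, 19954 and 44671 counts in muscle, subcutaneous and perirenal fat. Whether that locus belongs to HSL was not tested.

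MGLL, the monoglyceride lipase that ends the series and also breaks down the endocannabinoid 2-arachidonoylglycerol, differed least between tissues. The 3 tissues had medians of 7.45, 5.58 and 7.77 CPM in muscle, subcutaneous and perirenal fat, within overlapping ranges of 4.22 to 11.5, 2.12 to 10.6 and 3.94 to 12.1 CPM. Neither fat depot differed from muscle at the threshold, with log2 differences of -0.29 (SE 0.192, FDR 0.169) for subcutaneous and 0.19 (SE 0.190, FDR 0.351) for perirenal fat. Perirenal exceeded subcutaneous fat by 0.49 (SE 0.193, FDR 0.0267), a call that was lost without subcutaneous CN M2 (0.0521), subcutaneous HY F2 (0.0502), perirenal CN F1 (0.0770), perirenal DG M1 (0.0549) or perirenal HY F1 (0.0528). With the pool as a block, MGLL was also called lower in subcutaneous fat than in muscle, by a log2 difference of -0.36 (FDR 0.0481), as it was without subcutaneous CN F1 (-0.50, FDR 0.00984).

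PNPLA3, a lipid droplet protein related to PNPLA2 that is best known from liver, had 10 counts over the 12 muscle pools together and none in 7 of them, where a count of 0 allows a level of up to 0.114 to 0.244 CPM depending on the depth of the pool. These limits cover counting error only. It reached 5.08, 12.6 and 27.7 CPM (lowest, median, highest) in subcutaneous fat and 16.3, 47.7 and 61.5 CPM in perirenal fat. The fat depots overlapped in part, and the log2 difference of perirenal over subcutaneous fat was 1.70 (SE 0.221, FDR 1.13e-07). Both depots were called higher than muscle (FDR 5.12e-17 and 2.69e-19), with means 344 and 1046 times as high, ratios that rest on the 10 muscle counts.

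G0S2 binds PNPLA2 and inhibits it. In muscle its lowest, median and highest level was 0, 0.202 and 0.553 CPM and in subcutaneous fat 0, 0.403 and 1.52 CPM, from 44 and 105 counts over the 12 pools, with 1 pool at 0 in each tissue (limits of 0.174 and 0.450 CPM). The locus merged with HSD11B1, a steroid-activating enzyme, gave 66.3 to 133 CPM in perirenal fat, and its contrasts with the other tissues were not of like with like. Summed over the whole region in every tissue, the level was 7.20, 10.8 and 14.5 CPM in muscle, 30.9, 53.7 and 153 CPM in subcutaneous fat and 66.6, 93.0 and 133 CPM in perirenal fat. On that sum subcutaneous fat exceeded muscle by 2.57 on the log2 scale (SE 0.186, FDR 1.15e-13) and perirenal exceeded subcutaneous fat by 0.65 (SE 0.175, FDR 0.00168), in place of the 7.31 that the named loci gave. In subcutaneous fat, most counts of the region lay in an unnamed locus that ended next to G0S2, chr12:71772276-71772851, with 7468 counts over the 12 pools, against 1423 for HSD11B1. In muscle most lay in HSD11B1, with 2143 counts against 44 for G0S2. The sum was thus not a measure of G0S2 alone.

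DGAT2 makes triglyceride from diglyceride in the last step of storage. It was scarce in muscle and abundant in both fat depots, at 0.731, 1.90 and 4.68 CPM (lowest, median, highest) in muscle, 182, 482 and 1503 CPM in subcutaneous fat and 394, 930.0 and 1353 CPM in perirenal fat. The muscle pools lay far under both fat depots, which overlapped. The mean was 285 times as high in subcutaneous fat as in muscle and 1.504 times as high in perirenal as in subcutaneous fat, with log2 differences of 8.17 (SE 0.336, FDR 6.85e-20) and 0.66 (SE 0.243, FDR 0.0177).

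**Figure D2:**
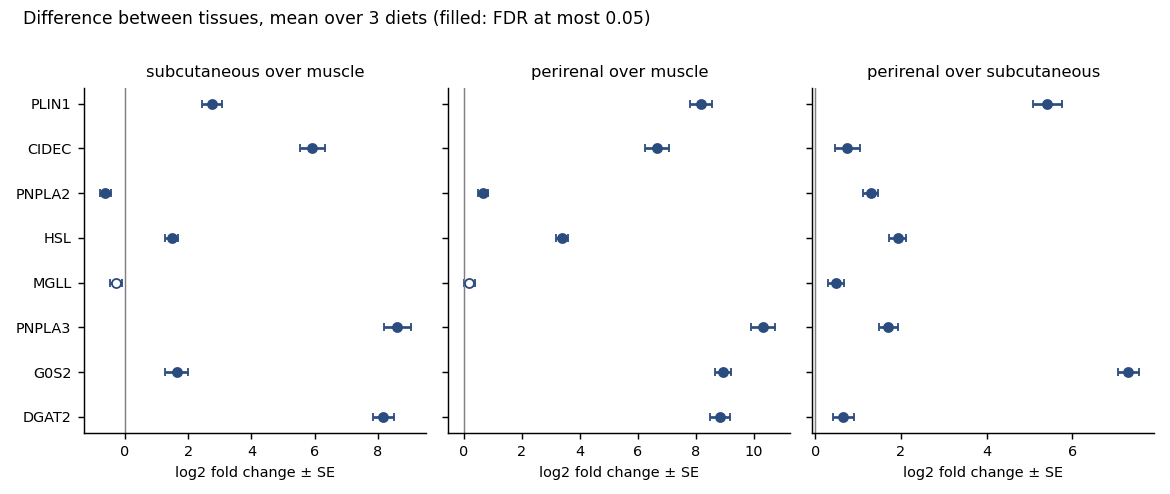
Log2 difference of each member for the 3 contrasts between tissues, with bars of 1 SE on either side and filled points at an FDR of at most 0.05 (edgeR, 36 libraries). Most members lie far to the right in both contrasts with muscle, MGLL stays near 0, and PNPLA2 is the member called lower in subcutaneous fat than in muscle.

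Contrasts between the fat depots were repeated with fewer subcutaneous pools. When the 7 subcutaneous pools with at most 50000 CPM of summed muscle markers were kept (CN F1, M1 and M2, DG M1, and HY F1, M1 and M2), 5 of the 8 members were called between perirenal and subcutaneous fat. CIDEC, MGLL and DGAT2 lost the call, with log2 differences of 0.52 (FDR 0.246), 0.45 (FDR 0.103) and 0.42 (FDR 0.215). HSL, PNPLA2, PNPLA3 and PLIN1 kept differences of 1.73, 1.4999, 1.46 and 5.14 with an FDR of at most 5.29e-05. Against muscle, 7 members were called for each fat depot among these pools, as among all pools. The shares of all genes called in this setting are not given here, so these counts show nothing particular to the members. This setting both lowered the muscle RNA and dropped 5 of 12 subcutaneous pools, and the part of each cannot be told apart.

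The rest of the droplet and lipase machinery was more mixed than the members. Of 10 other coat and assembly genes tested (CIDEB, HILPDA and LDAH were not), 4 were higher and 4 lower in subcutaneous fat than in muscle, 5 higher and 4 lower in perirenal fat than in muscle, and 6 higher and 3 lower in perirenal than in subcutaneous fat, with median log2 differences of 0.11, 0.24 and 0.56. CIDEA, a relative of CIDEC that enlarges droplets and that also stands in the adipocyte marker list, was at 1.54 ± 0.457 CPM in muscle, 36.6 ± 25.8 CPM in subcutaneous and 132 ± 34.8 CPM in perirenal fat (mean ± SD, n = 12 pools each). PTRF, a protein of caveolae, went the other way at 179 ± 17.6, 13.5 ± 5.14 and 9.999 ± 4.55 CPM. CAV1, the caveolar protein that also reaches droplets, peaked in subcutaneous fat at 1401 ± 290 CPM, against 107 ± 27.9 CPM in muscle and 64.0 ± 25.9 CPM in perirenal fat.

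Of 17 other lipolysis genes tested between tissues (ADRB1 and CES1 were not), 10 were higher and 5 lower in subcutaneous fat than in muscle, again 10 and 5 in perirenal fat against muscle, and 11 and 3 in perirenal against subcutaneous fat, where the median log2 difference was 0.75. ADRB3, the fat-specific adrenergic receptor that raises cyclic AMP, had 0 counts in every muscle pool and reached 7.36 ± 4.98 CPM in subcutaneous and 33.2 ± 7.92 CPM in perirenal fat. PRKAR2B, a regulatory subunit of the kinase that answers to cyclic AMP, had a mean of 47.4, 53.0 and 651 CPM in muscle, subcutaneous and perirenal fat, and PDE3B, which breaks cyclic AMP down, had 18.5, 117 and 226 CPM. The monoglyceride lipase ABHD6, which shares MGLL's substrate, had 2.04, 14.3 and 26.1 CPM, a tissue order that MGLL did not show.

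Of 13 other genes of triglyceride synthesis (GK, MOGAT1 and MOGAT2 were not tested), 6 were higher and 6 lower in subcutaneous fat than in muscle, 7 higher and 5 lower in perirenal fat than in muscle, and 6 higher and 4 lower in perirenal than in subcutaneous fat, with median log2 differences of -0.11, 0.62 and 0.18. DGAT1, the second enzyme of DGAT2's reaction, was at 23.0 ± 7.50, 58.9 ± 43.4 and 370 ± 121 CPM in muscle, subcutaneous and perirenal fat. GPAM, which starts the pathway, was highest in subcutaneous fat at 302 ± 171 CPM, against 13.2 CPM in muscle and 73.7 ± 35.2 CPM in perirenal fat. Within the family that adds the next fatty acid, AGPAT2 followed the fat depots at 10.0003, 26.7 and 96.2 CPM, while AGPAT3 was highest in muscle at 66.1 CPM against 10.3 and 9.95 CPM.

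In muscle, 3 lipases passed the test for maternal diet, each by a narrow margin. HSL was higher in the DG and HY pools than in the CN pools, and PNPLA2 and MGLL were higher in the HY pools. Each tissue was fitted on its own 12 pools, over 18155 genes in muscle. PNPLA3 and G0S2 were below the count filter there, which left 6 members tested. For DG over CN, 1 of the 6 was called, higher in DG, where 1.02% of all genes were called (0.986% higher), and all 6 had an unadjusted p of at most 0.05, as did 16.3% of all genes. For HY over CN, 3 were called, all higher in HY, where 2.95% of all genes were called (2.64% higher). For DG over HY, edgeR called 0 of 6, where 0% of all genes were called, none had an unadjusted p of at most 0.05 (2.18% of all genes did), and DESeq2 called 0. A fit of only the 8 pools of the diets compared called 0 members in each of the 3 contrasts, with HSL at FDR 0.0851 for DG over CN, and HSL, PNPLA2 and MGLL at 0.0543, 0.0595 and 0.0641 for HY over CN. That fit also called fewer of all genes in both contrasts with CN, as given below with the dependence on processing. The DG and HY contrasts share the CN pools. The median log2 difference of the 6 members was 1.25 for DG over CN, 0.79 for HY over CN and 0.29 for DG over HY, beside -0.00, -0.02 and 0.01 over all genes.

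In muscle HSL stood at 1.99, 1.504, 1.46 and 1.89 CPM in the CN pools F1, F2, M1 and M2, from 18 to 30 counts. The DG pools, in the same order, had 5.33, 3.37, 4.44 and 3.60 CPM and the HY pools 4.60, 3.70, 2.28 and 4.89 CPM. Every DG and HY pool was above every CN pool. The log2 difference was 1.28 for DG over CN (SE 0.263, FDR 0.0360) and 1.18 for HY over CN (SE 0.264, FDR 0.0355). Without a single library the former was lost in 8 of 12 cases, with FDR 0.0549 without CN F2, 0.112 without CN M1, 0.0873 without CN M2, 0.0860 without DG F1, 0.113 without DG M1, 0.0536 without HY F1, 0.0520 without HY F2 and 0.0569 without HY M2. The latter was lost without CN F1, M1 or M2, DG M1, or HY F1, F2 or M2, with FDR between 0.0562 and 0.126. The direction held each time, and the log2 difference stayed between 1.16 and 1.36 for DG and between 1.04 and 1.35 for HY.

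PNPLA2 in muscle was at 17.6, 21.6, 15.0 and 17.7 CPM in the CN pools (F1, F2, M1, M2), at 25.5, 23.0, 26.8 and 25.5 CPM in the DG pools and at 34.9, 27.0, 26.5 and 23.8 CPM in the HY pools. Again no DG or HY pool reached down into the CN range. The log2 difference was 0.64 for HY over CN (SE 0.144, FDR 0.0355) and 0.48 for DG over CN (SE 0.144), which missed the threshold at FDR 0.130. The HY call was lost without CN F1, M1 or M2, without DG F2, M1 or M2, or without HY F1, F2 or M1, with FDR between 0.0503 and 0.129.

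MGLL in muscle was at 6.11, 4.51, 4.22 and 4.60 CPM in the CN pools (F1, F2, M1, M2), at 11.5, 8.38, 7.85 and 7.17 CPM in the DG pools and at 9.47, 10.9, 7.73 and 6.37 CPM in the HY pools. The CN pools were the lowest 4 of the 12. The log2 difference was 0.83 in both contrasts with CN (SE 0.207 each), past the threshold for HY (FDR 0.0488) and short of it for DG (FDR 0.0742). The HY call was lost without any of 10 libraries, all but DG F1 and HY M2, with FDR between 0.0575 and 0.174. Without the filter on low counts its FDR was 0.0531.

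**Figure D3:**
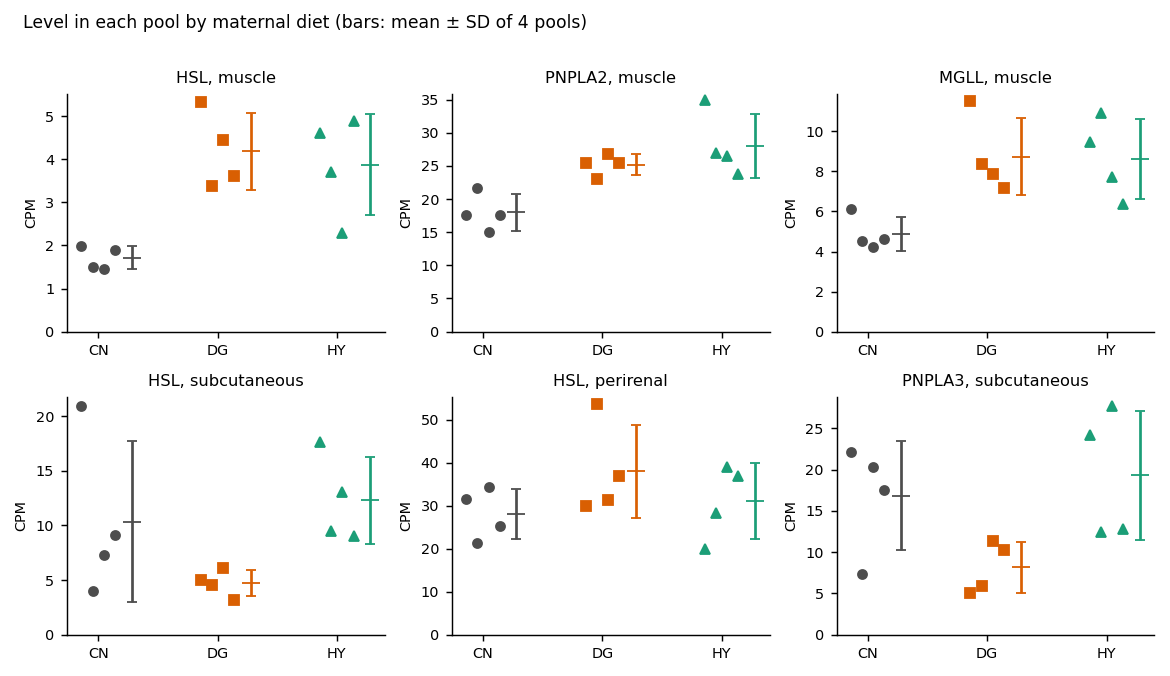
CPM of each pool by maternal diet for HSL, PNPLA2 and MGLL in muscle, HSL in subcutaneous and perirenal fat and PNPLA3 in subcutaneous fat, with the mean and SD of the 4 pools of a diet. In the muscle panels every CN pool lies under every DG and HY pool, whereas in the fat panels the diets overlap, with the DG pools at the low end of subcutaneous HSL and PNPLA3.

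The other members tested in muscle had few counts and wide spreads. PLIN1 was at 1.19 ± 0.507 CPM on CN, 3.27 ± 2.55 CPM on DG and 1.98 ± 1.25 CPM on HY (mean ± SD, n = 4 pools each), and CIDEC at 0.371 ± 0.223, 1.46 ± 1.18 and 1.03 ± 0.933 CPM. DGAT2 was at 1.38 ± 0.607, 3.30 ± 1.60 and 1.88 ± 0.617 CPM. Pools of different diets overlapped for all 3 genes. The log2 differences of DG over CN were 1.45 (SE 0.580, FDR 0.246), 1.92 (SE 0.809, FDR 0.266) and 1.23 (SE 0.422, FDR 0.184), and those of HY over CN were 0.75, 1.44 and 0.42 with FDR of 0.507, 0.344 and 0.619.

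Adipocyte markers summed to 80.5 to 125 CPM in the CN muscle pools, 103 to 182 CPM in the DG pools and 79.3 to 146 CPM in the HY pools, ranges that overlapped. Endothelial markers summed to 430 to 549, 514 to 653 and 547 to 613 CPM. The part of such cells in the muscle differences was not tested. Of the other pathway genes, 1 of 10 coat and assembly genes rose in HY over CN, PLIN4, a coat protein of small droplets (1.84, SE 0.460, FDR 0.0488), as did 1 of 13 synthesis genes, AGPAT6 (0.66, SE 0.150, FDR 0.0370), and 0 of 16 lipolysis genes. At an unadjusted p of at most 0.05 there were 5 of 10 coat, 5 of 13 synthesis and 2 of 16 lipolysis genes, beside 20.3% of all genes. The medians of these lists were 0.19, 0.16 and 0.01. In DG over CN, edgeR called none of the genes on these lists, and 5 of 10 coat, 6 of 13 synthesis and 4 of 16 lipolysis genes had an unadjusted p of at most 0.05, beside the 16.3% of all genes.

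In subcutaneous fat no member passed the test. Among 17743 genes, edgeR called 0 of the 8 members in each of the 3 diet contrasts, where it called 0% of all genes. DESeq2 called 0 of the 8 as well, though it called other genes, as given below with the dependence on processing. At an unadjusted p of at most 0.05 there were 2 members in DG over CN, 0 in HY over CN and 4 in DG over HY, of 8 each, where 15.0%, 4.37% and 18.2% of all genes were. All 8 log2 differences were negative in DG over CN and in DG over HY, which share the DG pools. Of all 17743 genes, 8755 and 8909 were above 0 in these contrasts. The members' medians were -0.95 and -1.07 beside -0.01 and 0.00 over all genes, and their median of HY over CN was 0.29 beside -0.02. The DG over CN values leaned on CN pool F1. Without it they were positive for PNPLA2 (0.69), MGLL (0.62) and G0S2 (0.52), and closer to 0 for CIDEC (-0.45) and DGAT2 (-0.64). MGLL, at -0.01 with all pools, was also positive without CN M1, DG F1, DG M1, DG M2 or HY F2, at 0.008 to 0.125. In DG over HY, CIDEC and DGAT2 came to -0.30 and -0.39 without HY pool F1, and all 8 members stayed negative whichever pool was left out.

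HSL in subcutaneous fat was at 20.9, 4.004, 7.30 and 9.15 CPM in the CN pools F1, F2, M1 and M2, at 5.02, 4.54, 6.07 and 3.22 CPM in the DG pools and at 17.7, 9.48, 13.1 and 9.06 CPM in the HY pools. No DG pool overlapped the HY pools, whereas the CN pools spanned both. The log2 difference of DG over HY was -1.32 (SE 0.432, FDR 0.159) and that of DG over CN -1.09 (SE 0.431, FDR 0.295), which was -0.43 without CN F1.

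PNPLA3 in subcutaneous fat was at 22.1, 7.38, 20.4 and 17.5 CPM in the CN pools (F1, F2, M1, M2), at 5.08, 5.95, 11.4 and 10.2 CPM in the DG pools and at 24.1, 12.5, 27.7 and 12.8 CPM in the HY pools. The DG pools were all under the HY pools, and under every CN pool but F2. The log2 difference was -1.19 for DG over HY (SE 0.387, FDR 0.159) and -0.99 for DG over CN (SE 0.387, FDR 0.291).

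PLIN1 and G0S2 were the other members with an unadjusted p of at most 0.05 in DG over HY, with log2 differences of -1.30 (SE 0.529, FDR 0.227; -0.83 without HY M1) and -1.79 (SE 0.699, FDR 0.208). PLIN1 was at 15.6 ± 9.05, 7.79 ± 4.05 and 19.7 ± 11.6 CPM on CN, DG and HY (mean ± SD, n = 4 pools each). G0S2 was at 1.43, 0.229, 0.421 and 0 CPM on CN (F1, F2, M1, M2), at 0.372, 0.384, 0.190 and 0.258 CPM on DG and at 1.52, 0.850, 1.17 and 1.01 CPM on HY, from at most 23 counts in any pool. These levels leave out the unnamed locus next to G0S2, which held 7468 counts. Over the summed G0S2 and HSD11B1 region the ranges were 44.4 to 108 CPM on CN, 30.9 to 59.6 on DG and 41.0 to 153 on HY. On that sum the diets overlapped. DGAT2 was at 763 ± 381 CPM on CN, 364 ± 137 CPM on DG and 743 ± 511 CPM on HY, and CIDEC at 64.4 ± 36.1, 32.2 ± 8.78 and 63.8 ± 46.8 CPM, with differences of DG over CN of -1.01 and -0.95. For DG over CN, PNPLA2 was at -0.17 and MGLL at -0.01, values that changed sign without CN F1, as given above.

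Muscle RNA varied among these pools and within every diet. The summed muscle markers were 27228.7, 73348.9, 4836.3 and 13931.3 CPM in the CN pools F1, F2, M1 and M2, 127539, 71655.2, 1316.03 and 93069.8 CPM in the DG pools and 1105.84, 120276, 4356.44 and 21888.7 CPM in the HY pools. Of the 5 pools above 50000 CPM, 3 were DG pools. With the level of muscle markers as a covariate, edgeR called 0 members in each contrast. In DG over CN and in DG over HY it then did call other genes, as given below with the dependence on processing. The DG over HY difference in that fit was -1.15 for HSL (FDR 0.180), -0.90 for PNPLA3 (FDR 0.161), -0.58 for DGAT2 and -0.51 for CIDEC. Adipocyte markers summed to 2110 to 11465 CPM on CN, 1650 to 7871 CPM on DG and 3082 to 12065 CPM on HY, with medians of 7295, 3234 and 6880 CPM. The ranges overlapped, and the median was lowest on DG, the diet on which the members were lower as well. The part of adipocyte number in those values was not tested. Of the other pathway lists, edgeR called 0 genes in any subcutaneous diet contrast. In DG over HY, 4 of 10 coat, 4 of 17 lipolysis and 3 of 13 synthesis genes had an unadjusted p of at most 0.05, beside 18.2% of all genes. In DG over CN there were 3 of 10, 4 of 17 and 2 of 13, beside 15% of all genes. HY over CN had 1 gene of each list, beside 4.37% of all genes.

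**Figure D4:**
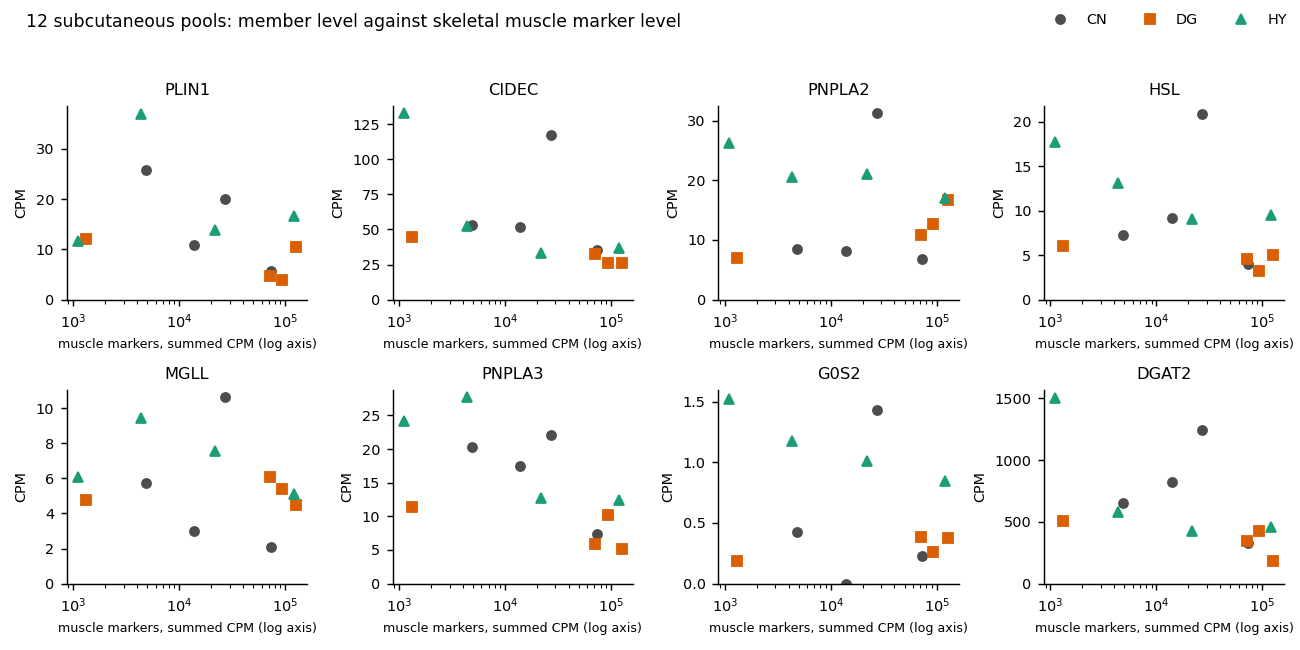
CPM of the members in the 12 subcutaneous pools against the summed CPM of skeletal muscle markers in the same pool, with the marker axis on a log scale, coloured by maternal diet. The pools spread from 1105.84 to 127539 CPM of muscle markers, and 3 of the 4 DG pools are among the 5 above 50000 CPM.

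In perirenal fat no member passed the test for diet. Among 17926 genes, edgeR called 0 of the 8 members in each diet contrast, where it called 0% of all genes. DESeq2 called 0 of the 8, though it called other genes, as given below with the dependence on processing. At an unadjusted p of at most 0.05 there was 1 member of 8 in HY over CN, where 2.34% of all genes were, and none in the other contrasts. That member was the locus of G0S2 merged with HSD11B1, at 115 ± 30.8 CPM on CN, 102 ± 21.8 CPM on DG and 74.7 ± 11.5 CPM on HY (mean ± SD, n = 4 pools each), with a log2 difference of -0.61 (SE 0.207, unadjusted p = 0.0103 by edgeR). The medians of the members were 0.01, -0.00 and -0.04 for DG over CN, HY over CN and DG over HY. HSL stood at 31.5, 21.3, 34.3 and 25.2 CPM in the CN pools F1, F2, M1 and M2, at 30.0, 53.7, 31.4 and 36.9 CPM in the DG pools and at 19.9, 28.3, 39.1 and 37.0 CPM in the HY pools. The 3 diets overlapped, and the log2 difference of DG over CN was 0.41 (SE 0.233, FDR 0.618). PLIN1, at 632 ± 153, 524 ± 204 and 563 ± 160 CPM, and PNPLA3, at 44.5 ± 9.31, 43.5 ± 19.2 and 46.6 ± 13.0 CPM, differed between diets by less than the spread of their pools. Of the other pathway lists, 0 genes were called by edgeR here. At an unadjusted p of at most 0.05 there were 5 of 17 lipolysis genes in DG over HY, beside 9.96% of all genes. In DG over CN there were 4 of 13 synthesis genes, beside 9.85% of all genes. The other lists and contrasts had at most 3 genes of a list.

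**Figure D5:**
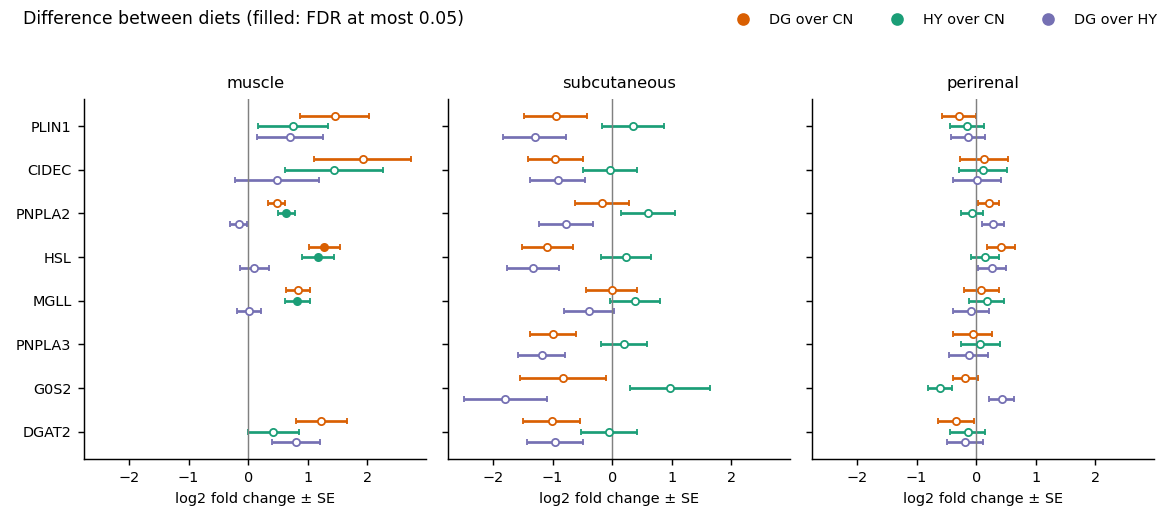
Log2 difference of each member for the 3 diet contrasts in each tissue, with bars of 1 SE on either side and filled points at an FDR of at most 0.05 (edgeR, 12 pools a tissue). The filled points are HSL in muscle for both contrasts with CN and PNPLA2 and MGLL in muscle for HY over CN. In subcutaneous fat all 8 members lie left of 0 in both contrasts with DG, unfilled, with MGLL at -0.01 in DG over CN. Of all 17743 genes tested there, 8755 were above 0 in DG over CN and 8909 in DG over HY. PNPLA3 and G0S2 are absent in muscle, below the count filter.

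Whether the diet response itself differed between tissues was tested in the fit over all 36 libraries. For the 4 interaction terms together, edgeR called 0 of the 8 members, where it called 0.166% of all genes. In that fit 4 members had an unadjusted p of at most 0.05, as did 15.3% of all genes. DESeq2 called 2 members, HSL (FDR 0.00465) and G0S2 (FDR 0.0104). It also called far more of all genes than edgeR, as given below with the dependence on processing. By edgeR HSL had an FDR of 0.0706 and G0S2 of 0.137. HSL passed without subcutaneous CN F1 (0.0289), CN F2 (0.0220), DG M1 (0.0304) or HY F2 (0.0262), and without CN F1 PNPLA2 (0.0296) and G0S2 (0.0213) passed as well.

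Taken by pairs, the response to DG over HY differed between the fat depots for 2 of the 8 members, both more positive in perirenal fat, where 6.99% of all genes were called (4.42% in that direction). For HSL, DG over HY was more positive in perirenal than in subcutaneous fat by 1.67 on the log2 scale (SE 0.463, FDR 0.0282), and with the pool as a block the value was 1.67 as well (FDR 0.0319). The call was lost without subcutaneous DG F2 (0.0671), DG M2 (0.0664) or HY F1 (0.0751), or perirenal DG F2 (0.0733) or HY F1 (0.0737), and among the 7 subcutaneous pools with less muscle RNA the difference was 1.42 (FDR 0.158). For G0S2 the difference was 2.28 (SE 0.599, FDR 0.0237), with unlike loci in the 2 tissues, and on the summed region it was 1.30 (FDR 0.0579). The G0S2 call was also lost without subcutaneous DG F2 (0.0577), DG M2 (0.0542) or HY F1 (0.0574), or perirenal HY F1 (0.0533). PNPLA2 had 1.14 (FDR 0.0944) and was called without subcutaneous CN F1 (0.0148) or DG F1 (0.0473).

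In the same contrast, genes outside the members also differed between the fat depots: CIDEA by 2.12 (SE 0.462, FDR 0.0140) among the coat genes, DGAT1 by 2.66 (SE 0.503, FDR 0.00903) and AGPAT2 by 2.06 (SE 0.573, FDR 0.0301) among the synthesis genes, and 4 of the 17 lipolysis genes, among them ADRB3 by 1.86 (SE 0.486, FDR 0.0269) and ABHD6 by 1.27 (SE 0.366, FDR 0.0334). Between subcutaneous fat and muscle, edgeR called 0 members for the difference of DG over CN, where 0.0226% of all genes were called and 6 members had an unadjusted p of at most 0.05, as did 8.94% of all genes. HSL came nearest, at -2.44 (FDR 0.0772), was called by DESeq2 (-2.35, FDR 0.00538) and passed by edgeR without subcutaneous CN F2 (0.0144) or DG M1 (0.0284). For DG over HY between subcutaneous fat and muscle, edgeR called 0 of 8 against 0.497% of all genes, with 4 at an unadjusted p of at most 0.05 beside 19.0% of all genes, DESeq2 called G0S2 (-2.36, FDR 0.0476), and without subcutaneous HY F2 edgeR called HSL (-1.60, FDR 0.0399) and DGAT2 (-2.01, FDR 0.0446). In the other 6 pairs edgeR called 0 members, with at most 2 at an unadjusted p of at most 0.05 beside 2.42% to 11.5% of all genes, and 0% or 0.00753% of all genes, and DESeq2 called 0 members. For HY over CN between the fat depots, PNPLA2 (-1.52, FDR 0.0148) and G0S2 (-2.89, FDR 0.0201) passed without subcutaneous CN F1.

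No member passed the test for the sex of the fetuses. With diet as a covariate and 6 pools of each sex per tissue, edgeR and DESeq2 each called 0 members in muscle, subcutaneous and perirenal fat, where edgeR called 0%, 0% and 0.0223% of all genes. At an unadjusted p of at most 0.05 there was 1 member in muscle, MGLL, higher in female pools by 0.39 on the log2 scale (edgeR, FDR 0.938), and none in the fat depots. The spread was wide in subcutaneous fat, where female over male was 0.75 for G0S2 (SE 0.565, FDR 0.491) and 0.58 for PNPLA2 (SE 0.349, FDR 0.416).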

How the data were processed

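RNA of fetuses, pooled except in the CN F2 libraries, was sequenced by the authors on an Illumina HiSeq instrument. Per the study's methods and the submitters' notes, reads were aligned to Oar_v3.1 with TopHat2 2.0.4 and loci were assembled within each tissue with Cufflinks 2.1.1. The deposited values are raw counts per locus and pool, and the notes name HTSeq without its role; its version and strand setting are not given in the sources used here. No pool was a copy of another: over 54 pairs of pools the lowest chi-square per degree of freedom was 12.5.

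Counts were analysed with edgeR 4.0.16 (limma 3.58.1, R 4.3.3): genes kept by filterByExpr (minimum count 10, minimum total 15), TMM scaling, robust glmQLFit and glmQLFTest, and Benjamini-Hochberg adjustment over all genes tested, with an FDR of at most 0.05 as the threshold. Diets and sexes were compared within a tissue, and tissues and interactions in 1 fit over 36 libraries and 9 groups. DESeq2 1.42.0 served as an alternative. Summaries were made in Python 3.11.15 (pandas 2.3.3, numpy 2.4.6) and figures in matplotlib 3.10.9. The fits were tested on simulated data. SE was the absolute log2 difference divided by the square root of F. The limit at a count of 0 was that of 3 counts.

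Members and gene lists were chosen with earlier results of these data known. Named were all members, up to 3 genes of smallest p per list and contrast, and ADFP, named after its values were seen. Pools of the same number in different diets were not taken as paired, since 3 (muscle), 8 (subcutaneous) and 5 (perirenal) of 12 such pairs had deviations correlated above 0.1, whereas the pools of the 3 tissues came from the same fetuses per the study's pool list. Their deviations correlated at a mean of 0.0671 between muscle and subcutaneous fat, 0.117 between muscle and perirenal fat and 0.0250 between the fat depots.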

Additional observations from a re-analysis of the deposited data

Results flagged for a closer look

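In 6 of 81 groups of 4 pools, a gene's highest or lowest pool stood apart from the other 3 by Dixon's criterion at the 95% level, and chance gives about 5% of groups. PNPLA2 in subcutaneous CN pool F1 was at 31.279 CPM, with the gap at 0.936 of the range, and this is the pool without which PNPLA2 gained calls between tissues. DGAT2 was at 1503.41 CPM in subcutaneous HY pool F1 (0.857) and at 1325.81 CPM in perirenal CN pool F2 (0.897). The merged G0S2 and HSD11B1 locus was at 68.7862 CPM in perirenal CN pool F1 (0.891) and at 91.7146 CPM in perirenal HY pool M1 (0.830). ADFP was at 38.2286 CPM in subcutaneous DG pool M1 (0.850), the DG pool with the least muscle RNA.

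The difference of DG over HY between perirenal and subcutaneous fat passed the test for HSL (FDR 0.0282049 by edgeR) and for G0S2 (FDR 0.0237462 by edgeR), the latter with unlike loci in the fat depots.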

How the results depend on the processing

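The 60 values of single members with an unadjusted p of at most 0.05 were recomputed under 2218 settings in all, of which 2126 kept the direction and side of the threshold, 82 lost the call, 10 gained it and 0 reversed. Of the 126 values with a larger p, 59 changed sign in at least 1 setting (162 of 3596), none of these with a call, and calls were gained in 3. In muscle, edgeR called 1 member for DG over CN, DESeq2 2, a fit of the 8 pools compared 0, and leaving out single pools gave 0 to 1; for HY over CN the count was 3, with 0 from the 8 pools, and 0 to 3 without single pools. With the replicate number as a block it was 1 for HY over CN (HSL at FDR 0.0513 and PNPLA2 at 0.0655 were lost) and 1 for DG over CN; the numbers were not taken to pair pools across diets, as not every pair correlated above 0.1, with means of -0.0323 (muscle), 0.245 (subcutaneous, beside -0.0879 for other numbers) and 0.0702 (perirenal). Between tissues the pool block ended the CIDEC call for perirenal over subcutaneous fat (FDR 0.0588) and gave MGLL a call for subcutaneous fat over muscle (FDR 0.0481), and the blocks changed no other call of a member. Between tissues, 4 members were called for subcutaneous fat over muscle within DG, and for perirenal over subcutaneous fat 5 within CN and 4 within HY, and 5 among the pools with less muscle RNA, a setting chosen after seeing the data, as was the summed region. The shares of all genes called in these settings are not given here, so the counts show nothing particular to the members. For the interaction DESeq2 called 2, and leaving out pools gave 0 to 3. For differences of diet contrasts, DESeq2 called 1 for DG over CN and 1 for DG over HY between subcutaneous fat and muscle (0 to 1 and 0 to 2 without single pools), HY over CN between the fat depots gave 0 to 2, and DG over HY between the fat depots gave 1 with the summed region, 0 among the pools with less muscle RNA and 0 to 3 without single pools. Leaving out single pools gave 7 to 8 members for subcutaneous fat over muscle and 7 to 8 for perirenal over subcutaneous fat.

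Over all genes, calls depended more on the setting: in muscle 186 (DG over CN) and 536 (HY over CN) by edgeR, 683 and 1330 by DESeq2, 2 and 362 from 8 pools, 134 and 270 with the block, and 9 to 340 and 30 to 1245 without single pools. In subcutaneous fat, edgeR called 0 genes in each contrast, but DESeq2 252, 0 and 815, and 281 with the block in DG over HY, where single pools left out gave 0 to 567; with muscle markers as a covariate it was 219, 0 and 104. In perirenal fat DESeq2 called 238, 3 and 92, and DG over CN gave 35 without a filter, 21 with each locus kept, 13 from 8 pools and 5 with another scaling. For the interaction edgeR called 22, DESeq2 655, the block 0, another scaling 41, no filter 2, the pools with less muscle RNA 1, and single pools left out 0 to 393. Counts per pool limit G0S2, CIDEC and PNPLA3 in muscle most.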

Other observations

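An unnamed locus past the HSL locus, chr14:49954831-49956445, held 1730 counts in muscle, 19954 in subcutaneous fat and 44671 in perirenal fat over the 12 pools of each tissue, against 735, 1397 and 4756 counts for HSL. Whether these counts belong to HSL was not tested.

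The genes with the most similar pattern to a member were found by the Euclidean distance between centred log2(CPM + 0.5) means of the 9 groups, over 9294 genes with at least 50 counts on average. HSL was nearest to AGPAT2 (distance 0.584), TRIM10 (0.719) and KLHL25 (0.828). PNPLA2 was nearest to ECI1 (0.405), CHAF1A (0.406) and NARFL (0.411), and MGLL to ELAC2 (0.323), TENC1 (0.341) and AP1M1 (0.365). CIDEC was nearest to LEP (0.824), MGST1 (0.839) and ACVR1C (0.885). DGAT2 was nearest to MUC20 (0.743), ADIPOQ (0.820) and ASGR1 (0.838), and PNPLA3 to C1orf167 (0.713), CLSTN3 (0.887) and CYP2B6 (0.897). PLIN1 had no gene closer than HOXA5 (1.56), followed by PRLR (2.17) and HNRNPH3 (2.26), and the G0S2 loci were nearest to PRLR (0.793), KCND3 (1.21) and LDHB (1.48). These distances are descriptions over 9 group means.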
